A study of Mus musculus with 8 samples.

Results

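The genes described here build and process N-glycans, the sugar chains that the endoplasmic reticulum attaches to asparagine residues of secreted and membrane proteins. They are 34 genes of 19937 measured, listed by pathway step and centred on Alg8. The list was chosen by pathway knowledge around Alg8, and Alg8 was selected on its own IIKO against WT values in an earlier look at these arrays, so its difference is given below as a description and not as a test. Among a gene's probe sets, the one kept was chosen by its mean over all 8 arrays. RNA came from regulatory T cells (Tregs), sorted as CD4+ TCRβ+ CD25+ cells from peripheral lymph nodes and spleen of bone marrow chimeras, and each sample was hybridised to 1 Affymetrix array from 100 ng of total RNA. The IIKO chimeras (4 arrays) were CD3ε-/- mice that had been lethally irradiated and given IIKO marrow. The WT chimeras (4 arrays) were CD3ε-/- mice treated in the same way and given WT marrow. Cells were taken 28 days after the transfer in both groups; strain and age are given as C57BL/6, 6 to 8 weeks.

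The recipients of both groups lack CD3ε, a part of the T cell receptor (TCR) complex, and so make no T cells of their own. Host cells that survive irradiation keep the recipient's genes in both groups. The labels state that Tregs of the IIKO chimeras have no peripheral contact between TCR and MHC class II, whereas those of the WT chimeras do; they do not name the disrupted gene, and they do not say how many mice an array pools. The comparison asks which Treg transcripts differ between these settings. Treg identity was checked first: Foxp3, the defining transcription factor, was at 10.68 ± 0.12 in IIKO and 10.63 ± 0.04 in WT chimeras (log2, SD, n = 4 arrays each). The gene for CD25, Il2ra, was at 12.18 ± 0.08 in IIKO and 12.01 ± 0.04 in WT chimeras, and Cd4 at 10.75 ± 0.07 in IIKO and 10.62 ± 0.07 in WT chimeras. None of the 3 passed limma's test (adjusted p = 0.738, 0.211 and 0.289). All values below are log2 expression of 1 probe set per gene, and levels of different genes are not compared, because each probe set has its own response. Fewer cells of a type and less RNA per cell cannot be told apart in such sorted bulk samples.

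N-glycan synthesis starts on a lipid, dolichol phosphate, in the membrane of the endoplasmic reticulum. ALG enzymes add N-acetylglucosamine, then mannose and then glucose, the oligosaccharyltransferase moves the finished chain onto a new protein, and glucosidases and mannosidases trim it while folding is checked. In the Golgi, MGAT enzymes add branches and FUT8 adds core fucose. Branched N-glycans on T cell surface proteins are known from mouse studies to bind galectins and to limit how readily TCRs cluster.

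Alg8 was lower in the IIKO chimeras, the difference it was selected on, and no other member passed the test. Over all 19937 genes, 0.286% passed (57 genes, limma with Benjamini-Hochberg adjustment over all genes, threshold 0.05). Of the 34 members, 1 lay past the threshold (Alg8, lower), and 33 did not pass. Nothing is read from that count, because Alg8 was the reason for choosing the pathway. Among the 33 others, adjusted p values ran from 0.130 for Fut8 to 0.937 for Mogs. Their differences, IIKO minus WT, ran from -0.26 for Fut8 to 0.63 for Mgat4a, and 25 of the 33 lay within 0.2 of 0. For 31 of the 33, the 95% confidence interval lay inside a 1.5-fold change in either direction. The exceptions were Alg11 (-0.12 to 0.64) and Mgat4a (0.30 to 0.95). Over all 19937 genes, 17502 differences lay within 0.2 of 0, and 19244 intervals lay inside a 1.5-fold change. Over the brighter 9968 genes, those with the higher mean level over all arrays, these counts were 8581 and 9526. Members lay within 0.2 of 0 somewhat less often than either set of genes. Nothing particular to the members is read from these 2 counts.

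**Figure D1:**
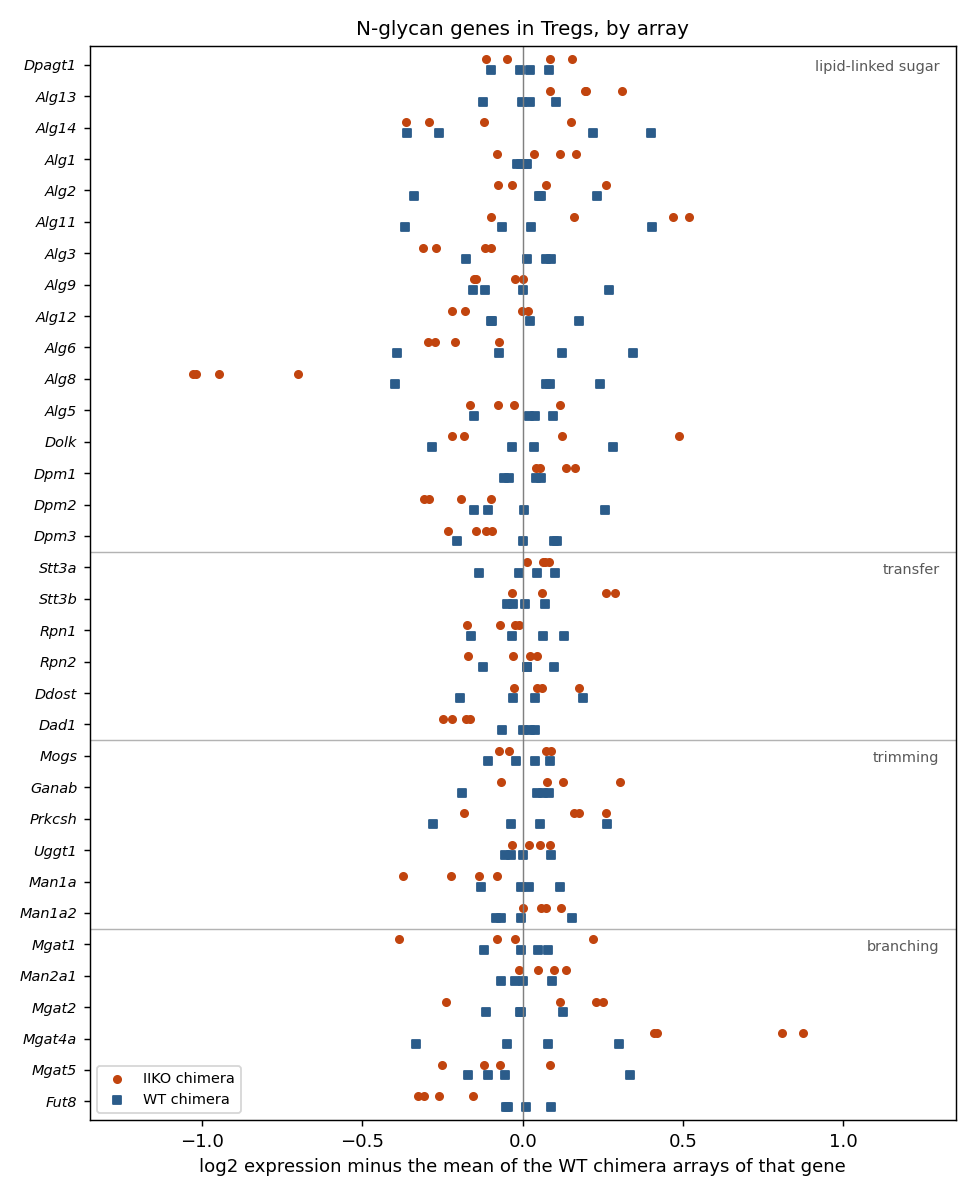
Expression of the 34 members on each array, as log2 value minus the gene's mean over the 4 WT chimera arrays, in pathway order from top to bottom. Circles are IIKO chimera arrays and squares are WT chimera arrays; Alg8 is the member whose IIKO arrays lie farthest below WT, and Mgat4a the one whose IIKO arrays lie farthest above.

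Alg8 encodes the glucosyltransferase that adds the second glucose to the lipid-linked chain. Its level was 8.93, 8.60, 8.61 and 8.68 in IIKO arrays 1 to 4, against 9.87, 9.72, 9.70 and 9.23 in WT arrays 1 to 4 (log2). Every IIKO array lay below every WT array, and the nearest values were IIKO array 1 and WT array 4. The means were 8.71 ± 0.15 in IIKO and 9.63 ± 0.28 in WT chimeras (SD, n = 4 arrays each), and so differed by -0.92, 1.90-fold lower in IIKO. When arrays were left out one at a time, the difference lay between -1.06 (without WT array 4) and -0.84 (without WT array 1). As a further description, Alg8 stayed past the threshold of 0.05 in 2 of these 8 fits and not in 6, which were those without WT arrays 1, 2 or 3 (differences -0.84, -0.90 and -0.90) and those without IIKO arrays 2, 3 or 4 (-0.89, -0.89 and -0.92). With a threshold of 0.01, 0 members passed.

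Alg8 lies on chromosome 7, which held 17 of the 57 changed genes (7 higher and 10 lower in IIKO chimeras) among its 1738 tested genes. None of the 10 tested genes on either side of Alg8 passed the test. These 20 neighbours differed by -0.42 to 0.30, with 4 positive and 16 negative differences. Positive differences thus made up 20.0%, against 37.1% of all genes. That share was 53.7% of the brighter genes and 20.5% of the remaining, dimmer genes. Of the 20 neighbours, 9 belong to the brighter genes. By limma p before adjustment, 2 of the 20 were higher at 0.05, against 5.27% of all, 8.95% of brighter and 1.58% of dimmer genes. On that count 5 of the 20 were lower, against 12.0% of all, 7.42% of brighter and 16.6% of dimmer genes. For 3 of the 20 the IIKO arrays all lay below the WT arrays (15.0%, against 7.69% of all, 4.49% of brighter and 10.9% of dimmer genes). Among them Aamdc, named after its values were seen, was at 8.42 ± 0.15 in IIKO and 8.83 ± 0.11 in WT chimeras (SD, n = 4 arrays each; limma adjusted p = 0.0878). Ndufc2, a subunit of respiratory complex I and the next gene after Alg8, was at 11.74 in IIKO and 11.75 in WT chimeras. Kctd21, the tested gene directly before Alg8 and one of the dimmer genes, was at 5.94 ± 0.18 in IIKO and 6.30 ± 0.06 in WT chimeras (SD). Its arrays did not overlap, though the nearest pair both lay at 6.21, and its difference of -0.36 did not pass (limma adjusted p = 0.147). In gene order, the nearest changed genes were Fsd2, with 88 tested genes between, and Lrrc32, which encodes the Treg surface protein GARP, with 16 tested genes between. Both were lower in IIKO chimeras (-0.56 and -0.74, limma adjusted p = 0.00746 and 0.0373). Whether a difference in donor genotype along chromosome 7 has a part in the Alg8 value was not tested.

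**Figure D2:**
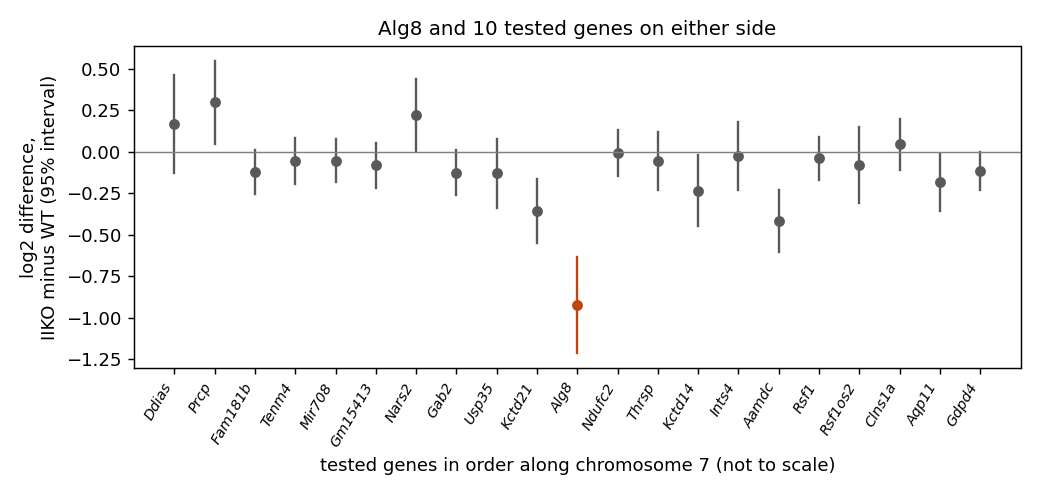
Difference in log2 expression, IIKO minus WT chimeras, with its 95% confidence interval, for Alg8 and the 10 tested genes on either side in their order along chromosome 7 (spacing not to scale). Alg8, at -0.92, lies below the range of its neighbours (-0.42 to 0.30).

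Of the other members, Man2a1 lies on chromosome 17, which held 18 changed genes among 940 tested, and the remaining 32 lie on neither chromosome. For 0 of the 34 members did any of the 10 tested genes on either side pass the test.

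Promoter sequence from RefSeq (assembly GRCm38.p6), 250 bases before to 50 after an annotated transcript start, was matched for 30 of the 34 members and gave 37 promoters. Those of Alg2, Alg11, Dpagt1 and Man1a2 are not shown. The promoter of Alg8 is printed because the list is centred on it, that of Alg6 because its product adds the first glucose, just before the step of Alg8, and that of Alg12 because it holds the 1 match to the ER stress element. They are written 5′ to 3′ on the gene's strand. Capitals mark matches on either strand to CCAAT, to GGGCGG (the GC box), to TGACGTG (the core of an unfolded protein response element), to CACGTG (the E box) or to the ER stress element, which is CCAAT, then 9 bases of any kind, then CCACG. The ER stress element begins with CCAAT, so those 2 matches overlap.
Alg8, chr7:97371367-97371666, + strand: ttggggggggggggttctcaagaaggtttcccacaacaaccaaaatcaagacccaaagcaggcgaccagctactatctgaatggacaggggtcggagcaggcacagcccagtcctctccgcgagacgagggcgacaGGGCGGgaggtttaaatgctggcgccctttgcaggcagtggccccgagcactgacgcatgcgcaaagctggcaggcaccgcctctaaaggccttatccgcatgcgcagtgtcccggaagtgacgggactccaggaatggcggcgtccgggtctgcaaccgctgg
Alg6, chr4:99715380-99715679, + strand: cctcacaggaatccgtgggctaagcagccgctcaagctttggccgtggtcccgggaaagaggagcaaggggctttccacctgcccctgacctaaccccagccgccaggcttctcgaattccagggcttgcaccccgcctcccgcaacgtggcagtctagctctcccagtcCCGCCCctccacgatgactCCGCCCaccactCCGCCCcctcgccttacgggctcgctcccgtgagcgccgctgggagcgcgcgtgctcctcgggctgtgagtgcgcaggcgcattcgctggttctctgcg
Alg12, chr15:88819269-88819568, - strand: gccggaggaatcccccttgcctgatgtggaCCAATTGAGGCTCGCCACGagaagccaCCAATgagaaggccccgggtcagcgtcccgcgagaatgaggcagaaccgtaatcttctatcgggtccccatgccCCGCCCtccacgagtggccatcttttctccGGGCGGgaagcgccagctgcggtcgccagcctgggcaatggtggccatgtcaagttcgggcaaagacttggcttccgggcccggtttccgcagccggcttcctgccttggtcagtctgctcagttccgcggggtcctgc

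These windows were rich in G and C. Their GC content had a median of 61.0% over the 37 member promoters, against 52.7% over all 32851 promoters in the table, and was 62.3% for Alg8. The GC box was in 25 of the 37 member promoters (67.6%) and in 35.7% of all promoters. CCAAT was in 18 of the 37 (48.6%), 1 promoter each of 18 genes, and in 37.4% of all. Dad1, Fut8 and Mgat4a were among these genes, and Alg8 and Alg6 were not. Fut8 and Mgat4a also have promoters here without CCAAT, and which start these cells use was not tested. TGACGTG was in 2 (Dpm2 and Mogs, 5.41%) and in 2.01% of all, and CACGTG was in 4 (10.8%) and in 7.15% of all. The ER stress element was in 1 (Alg12, 2.70%) and in 0.119% of all. These are matches of letters in a fixed window and not mapped binding sites.

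The 15 genes of lipid-linked sugar assembly other than Alg8 had a median difference of -0.04, against -0.04 over all 19937 genes. Over the brighter 9968 genes, those with the higher mean level over all arrays, to which 32 of the 34 members belong, the median was 0.01. None of the 15 passed, with 7 differences positive and 8 negative. With Alg8 the median was -0.06, and it moved to -0.01 with arrays centred on their medians, to -0.02 and -0.03 without WT arrays 2 and 3, and to -0.10 without WT array 4. The start of the chain is made by Dpagt1, which loads the first sugar phosphate onto the lipid, and its level was 8.15 ± 0.12 in IIKO and 8.13 ± 0.08 in WT chimeras (SD, n = 4 arrays each). Alg13 and Alg14 together add the next sugar. Alg13 was at 7.07, 7.29, 7.18 and 7.18 in IIKO arrays 1 to 4, against 6.98, 6.86, 7.09 and 7.01 in WT arrays 1 to 4. IIKO array 1 lay just below WT array 3, so the groups overlapped by that pair, and the difference of 0.20 did not pass (limma adjusted p = 0.213). Alg14, its partner, varied more within groups, with an SD of 0.23 in IIKO and 0.37 in WT chimeras, and differed by -0.16.

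The mannosyltransferases on the cytosolic side, Alg1, Alg2 and Alg11, had differences of 0.06, 0.06 and 0.26, and Alg11 was spread by an SD of 0.29 in IIKO and 0.32 in WT chimeras. Those on the lumenal side, Alg3, Alg9 and Alg12, had differences of -0.20, -0.08 and -0.10. Alg3, which adds the first of the lumenal mannoses, was at 8.48, 8.32, 8.49 and 8.28 in IIKO arrays 1 to 4, against 8.68, 8.61, 8.67 and 8.42 in WT arrays 1 to 4. The overlap came from WT array 4, which lay below IIKO arrays 1 and 3, and the difference did not pass (limma adjusted p = 0.238).

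The donors for the lumenal steps are dolichol-linked mannose and glucose. Dolichol kinase (Dolk) differed by 0.05 and Alg5, which makes the glucose donor, by -0.04. The mannose donor is made by a synthase with the catalytic subunit Dpm1 and the smaller subunits Dpm2 and Dpm3, and their differences were 0.10, -0.22 and -0.15. Dpm2 was at 9.60, 9.62, 9.81 and 9.72 in IIKO arrays 1 to 4, against 9.80, 9.91, 10.17 and 9.76 in WT arrays 1 to 4. IIKO array 3 lay above WT arrays 1 and 4, and the difference did not pass (limma adjusted p = 0.255). Without WT array 3 it was -0.14.

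Alg6, which acts directly before Alg8 and is its closest relative in the pathway, was at 6.99, 6.91, 6.93 and 7.13 in IIKO arrays 1 to 4, against 7.33, 7.13, 7.55 and 6.81 in WT arrays 1 to 4. The 4 IIKO arrays lay between WT array 4 and WT array 3, the lowest and highest of the WT group. Its difference of -0.21 ± 0.13 (SE) did not pass (limma adjusted p = 0.422) and had a 95% confidence interval of -0.51 to 0.09. Without WT array 4 the Alg6 difference was -0.34 and without WT array 3 it was -0.10; neither passed (limma adjusted p = 0.241 and 0.688).

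The 6 subunits of the oligosaccharyltransferase, which transfers the chain to protein, had a median difference of 0.01, or -0.02 after a further quantile normalization, with 3 positive and 3 negative, and 0 passed. Stt3a, the catalytic subunit that works while a protein is being made, was at 11.60, 11.60, 11.62 and 11.55 in IIKO arrays 1 to 4, against 11.52, 11.63, 11.58 and 11.40 in WT arrays 1 to 4. The IIKO values lay within the WT range. Stt3b, the catalytic subunit that also works after synthesis, was at 9.59, 9.57, 9.27 and 9.37 in IIKO arrays 1 to 4, against 9.38, 9.28, 9.26 and 9.31 in WT arrays 1 to 4. IIKO arrays 1 and 2 lay above every WT array and IIKO arrays 3 and 4 did not. The differences were 0.06 ± 0.06 for Stt3a and 0.14 ± 0.08 for Stt3b (SE; limma adjusted p = 0.648 and 0.362).

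Dad1, a small subunit of the same complex named for its part in cell survival, was at 10.61, 10.64, 10.68 and 10.70 in IIKO arrays 1 to 4, against 10.88, 10.79, 10.90 and 10.86 in WT arrays 1 to 4. All 4 IIKO arrays lay below all WT arrays, and the arrays of a group lay close together, with an SD of 0.04 in IIKO and 0.05 in WT chimeras. The difference of -0.20 ± 0.05 (SE) did not pass over all genes (limma adjusted p = 0.156). The subunits Rpn1, Rpn2 and Ddost differed by -0.07, -0.03 and 0.06.

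The 6 trimming and folding-control genes had a median difference of 0.05, or 0.01 after a further quantile normalization and 0.10 with arrays centred on their medians, with 5 positive and 1 negative, and 0 passed. Glucosidase I (Mogs) differed by 0.01, and Ganab and Prkcsh, the subunits of glucosidase II, by 0.11 and 0.10. Uggt1, the folding sensor that puts glucose back on unfolded glycoproteins, differed by 0.03 ± 0.06 (SE), with a 95% confidence interval of -0.09 to 0.15. The Golgi mannosidases Man1a and Man1a2 had differences of opposite sign. Man1a was at 9.33, 9.48, 9.63 and 9.57 in IIKO arrays 1 to 4, against 9.73, 9.70, 9.83 and 9.58 in WT arrays 1 to 4. Of the IIKO arrays, array 3 alone reached above the lowest WT array, and the difference of -0.20 did not pass (limma adjusted p = 0.233). Man1a2 was at 9.66, 9.72, 9.78 and 9.73 in IIKO arrays 1 to 4, against 9.58, 9.65, 9.59 and 9.81 in WT arrays 1 to 4. WT array 4 was the highest of all 8, and the difference of 0.06 did not pass (limma adjusted p = 0.627).

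The 6 genes of branching and core fucosylation had 3 positive and 3 negative differences, and 0 passed. Their median was -0.02 after a further quantile normalization and 0.05 with arrays centred on their medians. They held the highest and the lowest difference among the members other than Alg8. Mgat4a, which starts one of the branches, was at 8.14, 8.20, 7.75 and 7.74 in IIKO arrays 1 to 4, against 7.41, 7.0, 7.63 and 7.28 in WT arrays 1 to 4. The groups did not overlap, with IIKO arrays 3 and 4 about 0.1 above WT array 3. The means were 7.96 ± 0.25 in IIKO and 7.33 ± 0.26 in WT chimeras (SD, n = 4 arrays each), and so differed by 0.63 ± 0.15 (SE), 1.55-fold higher in IIKO; this did not pass (limma adjusted p = 0.136).

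Fut8, which adds the core fucose, was at 8.40, 8.51, 8.34 and 8.36 in IIKO arrays 1 to 4, against 8.61, 8.62, 8.76 and 8.68 in WT arrays 1 to 4. All IIKO arrays lay below all WT arrays. The means were 8.40 ± 0.08 in IIKO and 8.67 ± 0.07 in WT chimeras (SD, n = 4 arrays each), and so differed by -0.26 ± 0.06 (SE), 1.20-fold lower in IIKO; this did not pass (limma adjusted p = 0.130). Mgat1, which commits a chain to branching, differed by -0.07 ± 0.11, Man2a1, which trims it further, by 0.07 ± 0.06, and Mgat2 by 0.09 ± 0.11 (SE). Mgat5, whose branch carries galectin ligands in mouse T cells, was at 8.43 ± 0.14 in IIKO and 8.52 ± 0.23 in WT chimeras (SD, n = 4 arrays each). The Mgat5 difference was -0.09, and its 95% confidence interval ran from -0.34 to 0.16.

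**Figure D3:**
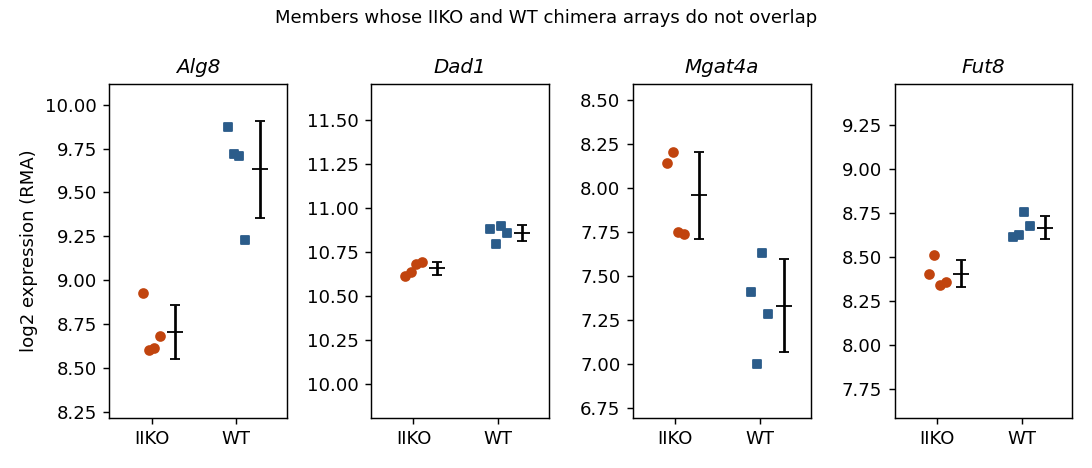
Log2 expression of the 4 members whose IIKO and WT chimera arrays do not overlap; points are single arrays, and bars give the mean and SD (n = 4 arrays each). Each panel spans the same range of 1.9 log2 units; Alg8, Dad1 and Fut8 are lower and Mgat4a is higher in IIKO chimeras.

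By limma p under 0.05 before any adjustment, 2 of the 34 members were higher (Alg13 and Mgat4a, 5.88%), against 5.27% of all genes and 8.95% of the brighter genes. On that count 6 were lower (Alg8, Fut8, Dad1, Man1a, Alg3 and Dpm2, 17.6%), against 12.0% of all genes and 7.42% of the brighter genes. Without Alg8 these were 5 of 33 (15.2%). Groups did not overlap for 1 higher member (Mgat4a), against 2.83% of all genes and 4.95% of the brighter genes, and for 3 lower members (Alg8, Dad1 and Fut8), against 7.69% and 4.49%. Without Alg8 the lower ones were 2 of 33 (6.06%). Differences were positive for 18 of the 34 (52.9%), against 37.1% of all genes and 53.7% of the brighter genes. The median of the members was 0.02, and the sign of that median changed with the scaling: it was -0.01 after a further quantile normalization and 0.07 with arrays centred on their medians.

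One WT array stood apart for these genes. WT array 4 was the lowest of the WT group for 19 of the 34 members (55.9%), against 34.6% of the brighter genes. The members' mean was 8.92, 8.94, 8.87 and 8.85 in IIKO arrays 1 to 4, against 8.97, 8.93, 8.97 and 8.82 in WT arrays 1 to 4. Without WT array 4, 14 of the 34 differences were positive and the median was -0.03. What sets WT array 4 apart was not tested.

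Among 58 measured genes of 61 listed for the rest of the pathway, 0 passed the test, and 4 had a limma p under 0.05 before adjustment. Of these, 3 were higher (5.17%, against 5.27% of all genes and 8.95% of the brighter genes). The other 1 was lower (1.72%, against 12.0% of all genes and 7.42% of the brighter genes). To the brighter genes belong 49 of the 58. Differences were positive for 31 of the 58 (53.4%), against 37.1% of all genes and 53.7% of the brighter genes, and negative for 27. Their median was 0.01, and all 58 confidence intervals lay inside a 1.5-fold change. The 3 higher at an unadjusted p under 0.05 were Man1b1, a mannosidase that marks misfolded glycoproteins (0.30), Uap1, which makes the N-acetylglucosamine donor (0.32), and Man2b1, a lysosomal mannosidase (0.17). The 1 lower was Dolpp1, which recycles dolichol diphosphate (-0.27). Limma adjusted p values of these 4 ran from 0.189 to 0.218.

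Man1b1 was at 7.38, 7.05, 7.19 and 7.07 in IIKO arrays 1 to 4, against 7.03, 6.79, 6.96 and 6.71 in WT arrays 1 to 4. Every IIKO array lay above every WT array, by 0.03 at the nearest pair. Dolpp1 was at 7.44, 7.41, 7.06 and 7.54 in IIKO arrays 1 to 4, against 7.70, 7.58, 7.64 and 7.60 in WT arrays 1 to 4. Every IIKO array lay below every WT array, and IIKO array 3 was the lowest; without it the Dolpp1 difference was -0.16. The next smallest p values belonged to Man1c1 (0.18), the folding enzyme Pdia3 (0.13), Uggt2 (-0.14), the oligosaccharyltransferase subunits Ost4 (0.13) and Tmem258 (0.12), and Mgat3 (-0.13). By step, the sugar donors and their transport had 12 of 18 positive differences, the remaining oligosaccharyltransferase subunits had 4 of 6, the remaining genes of lipid-linked sugar assembly 2 of 6 (median -0.04) and the genes of removal and breakdown 1 of 5 (median -0.02). The galactose and sialic acid capping genes, with the remaining branching genes, had 6 of 11, and trimming, folding and export had 6 of 12.

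**Figure D4:**
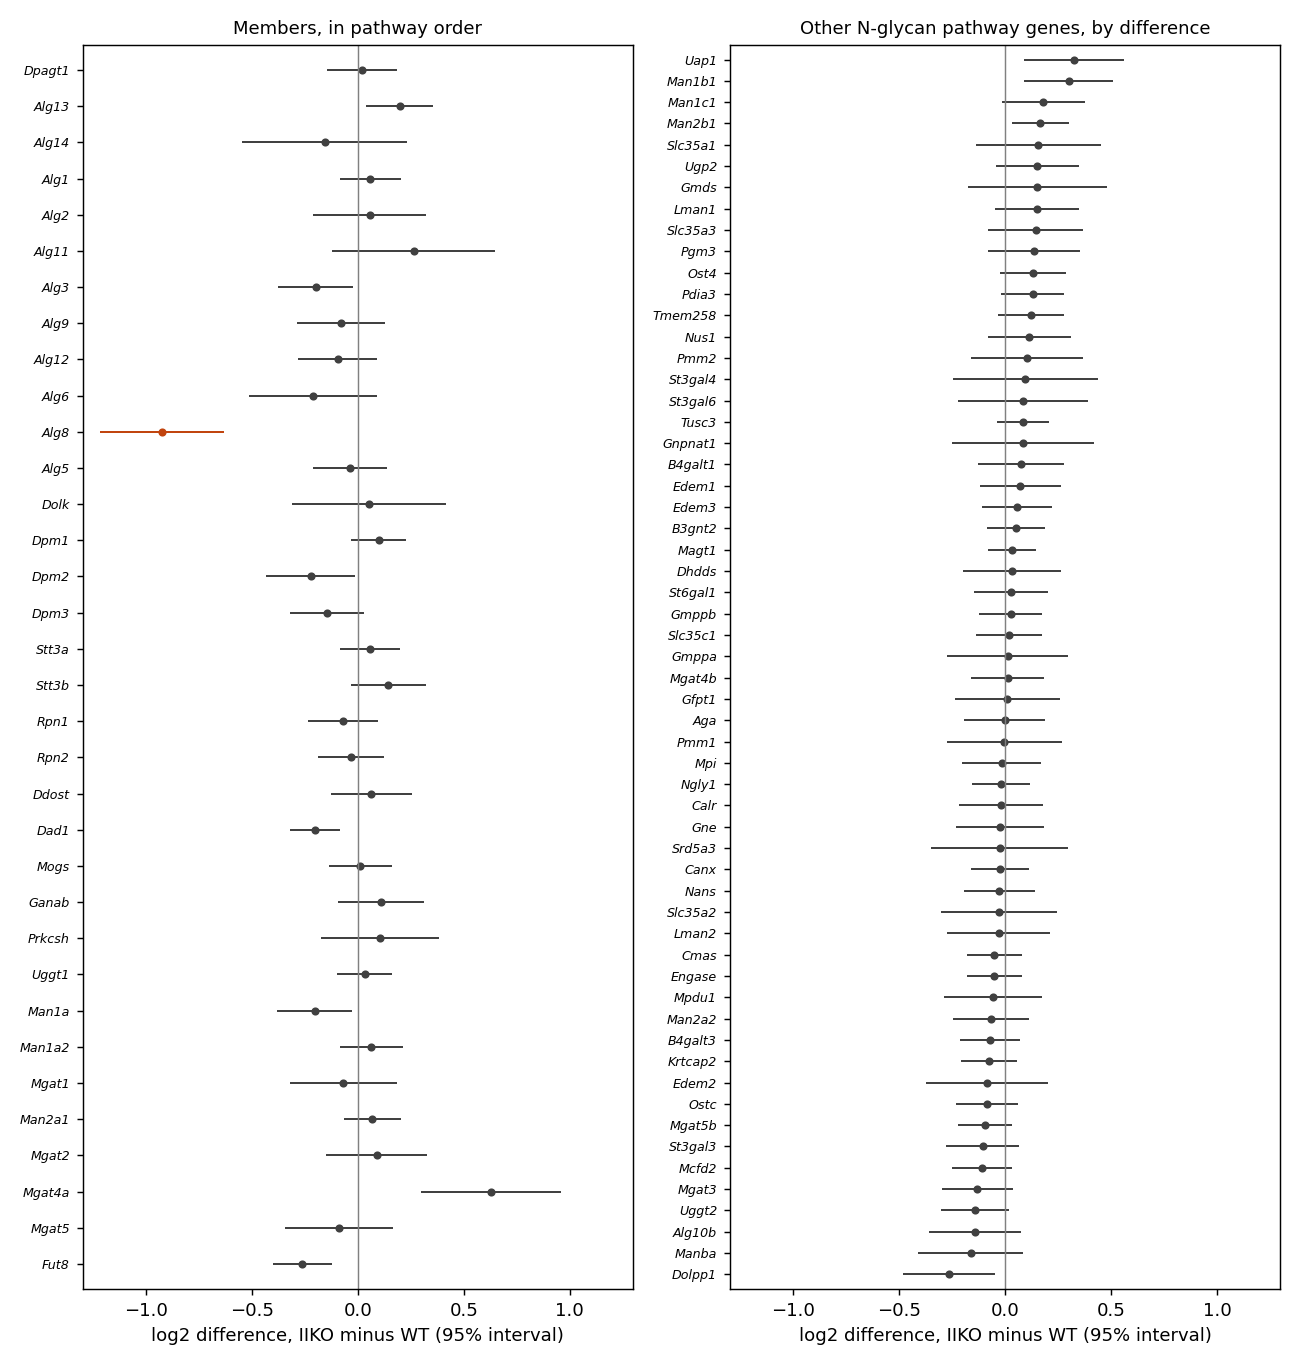
Difference in log2 expression, IIKO minus WT chimeras, with 95% confidence intervals, for the 34 members in pathway order (left) and the 58 other N-glycan pathway genes ordered by difference (right). Alg8 (-0.92, in red) is the gene past an adjusted p of 0.05; the other pathway genes lie between -0.27 and 0.32.

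Of 43 listed markers of Tregs, of other cells the sort could hold and of cycling cells, 36 were measured. The 7 Treg and T cell markers averaged 11.814 to 11.872 in IIKO and 11.774 to 11.813 in WT arrays, without overlap. Of these 7, Il2ra (0.17), Ctla4 (0.12) and Ikzf2 (0.05) did not overlap either, higher in IIKO chimeras. Arrays did not overlap in that direction for 2.83% of all genes and 4.95% of the brighter genes. Foxp3 (0.05) and Cd4 (0.13) overlapped, and so did Cd3d (-0.07) and Cd3g (-0.06), whose differences had the other sign. The sort on CD4, TCRβ and CD25 would remove most B, plasma, myeloid, NK, CD8 T and erythroid cells. The means of other lists were 6.03 to 6.07 in IIKO and 5.91 to 6.22 in WT arrays for 5 B cell genes, and 6.15 to 6.31 in IIKO and 6.22 to 6.34 in WT arrays for 5 plasma cell genes. For 8 myeloid and dendritic cell genes they were 6.00 to 6.42 in IIKO and 6.09 to 6.29 in WT arrays, and for 5 NK and CD8 T cell genes 6.19 to 6.54 in IIKO and 6.35 to 6.64 in WT arrays. The 1 erythroid gene measured, Alas2, lay at 6.73 to 7.56 in IIKO and 7.18 to 7.58 in WT arrays. The 5 cell cycle genes averaged 10.10 to 10.25 in IIKO and 10.11 to 10.36 in WT arrays. Of all these 36 markers 0 passed limma's adjusted test. Without adjustment, limma gave p under 0.05 to 2 with positive differences (Il2ra and Ctla4), against 5.27% of all genes. It did so for 3 with negative differences, against 12.0% of all genes: Siglech (-0.19), Cd8a (-0.11) and Birc5 (-0.20). Arrays of these and of Klrb1c (-0.10) did not overlap, lower in IIKO chimeras. That held for 7.69% of all genes and 10.9% of the dimmer genes. The largest difference of a marker was that of Eomes (-0.44), whose groups overlapped. Array values have no true zero, and the part of other cell types or of cycling cells in the Alg8 difference was not tested.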

How the data were processed

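The authors' deposited table holds log2 expression per probe set for 8 arrays, for which the submitters' processing notes name affy and RMA (versions not given in the sources used here). Values spanned 2.54 to 13.72, array medians 6.96 to 7.03. Precision is limited by the number of arrays. P-values reflect the spread between samples, which may be partly technical. Of 34760 probe sets, 21640 had 1 gene symbol in the platform annotation, 1321 had several and 11799 had none; the probe set of highest mean stood for a gene (19937 genes). All 34 members had 1 probe set, and none was filtered on level. Groups follow the sample titles. IIKO minus WT was fitted with limma 3.58.1 in R 4.3.3 (lmFit, eBayes, 6 residual degrees of freedom, two-sided, Benjamini-Hochberg over all genes) and tested on simulated data. Gene order came from RefSeq (GRCm38.p6). The annotation names no build, so array positions are not printed. Members, lists and tests were chosen with earlier results of these data known. Named in full are Alg8, members with an unadjusted p under 0.05 or without overlap, 3 paralog pairs (with Alg6, Stt3a, Stt3b, Man1a and Man1a2), the highest and lowest member, the 10 other pathway genes with the smallest p and changed neighbours of Alg8. Of the other pathway genes listed, 3 were not analysed here. Alternatives were a threshold of 0.01, a replicate block, 2 further scalings, the brighter 9968 genes alone, eBayes with trend, array weights, mean probe sets, no chromosomes 7 and 17, and each array left out. Figures used Python 3.11.15 and matplotlib 3.10.9.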

Additional observations from a re-analysis of the deposited data

Results flagged for a closer look

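Over 68 groups of 4 arrays (34 members in each chimera type), 1 array stood far from the other 3 of its group, and chance gives about 1 such group in 20. Ganab, the catalytic subunit of glucosidase II, was at 9.24 in WT array 4, while WT arrays 1 to 3 lay between 9.47 and 9.51.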

How the results depend on the processing

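Replicate numbers gave no consistent pairing of the arrays. Deviations of same-numbered arrays 1 to 4 correlated at 0.04, -0.01, -0.07 and 0.22, and not every array correlated best with its own number. The value for the arrays numbered 4 was the highest of all IIKO and WT pairs. Whether these 2 arrays share a technical or other effect was not tested. With the replicate number as a block, the genes changed numbered 31 instead of 57, and Alg8 still passed as the 1 member. Of all genes, 21 passed at a threshold of 0.01, and 5 passed without the genes of chromosomes 7 and 17. Those chromosomes held 17 and 18 of the 57 changed genes. The adjustment was redone over the 17259 genes left, so 5 is not the number of the 57 that lie elsewhere. Of the members, 0 passed at 0.01, and 0 without those chromosomes, where Alg8 was not tested. With single arrays left out, 32 to 50 of all genes and 0 to 1 of the members passed; the count of all genes was 36, 32 and 35 without IIKO arrays 1, 2 and 3, and 32 and 33 without WT arrays 1 and 3. The call of Alg8 stayed with array weights, eBayes with trend, both further scalings and dim genes left out. It also stayed with mean probe sets, which could not change its difference, as Alg8 has 1 probe set. Alg8 was selected on its values on these same arrays, so all these calls describe it and do not test it. Of the other pathway genes, 0 passed in any alternative. Alternatives were run for 22 genes (12 members and 10 other pathway genes), and 0 of these changed sign. Most of the 22 were picked for a small p or for groups without overlap. A replicate block, eBayes with trend and the threshold cannot move a difference, so no stability is read from this count. Of all 34 members, 18 differences were positive in the main fit, 17 after further quantile normalization and 20 with arrays centred. Centring arrays on their medians moved the difference of every gene by the same 0.05, and the median of all genes from -0.04 to 0.01. The moves of the list medians under that scaling are this constant. The causes of the other shifts were not tested. Depth of probe signal over background was not analysed here.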
